A study of Homo sapiens with 6 samples.

Results

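The genes described here are the 8 that encode the YTH-domain and IGF2BP readers of N6-methyladenosine (m6A): YTHDC1, YTHDC2, YTHDF1, YTHDF2, YTHDF3, IGF2BP1, IGF2BP2 and IGF2BP3. They were taken by gene symbol, with no threshold on their values, from a table of 61860 genes, and 7 of the 8 passed the filter on low counts that 17372 genes of the table passed. The libraries came from 5637 cells, an established human bladder cancer line, as 3 libraries labelled siYTHDC1 and 3 labelled siNC, the control. The siYTHDC1 name was read as silencing of YTHDC1; the labels also mention a plasmid and an infection, so the reagent is unclear, and both groups carry the same treatment label. Separate cultures are not stated for the replicates, so the p-values cover library-to-library spread alone, and that spread may be technical. Below, siYTHDC1 and siNC name libraries by their labels.

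m6A is a methyl mark that a nuclear methyltransferase complex places on adenosines of messenger RNA, mostly within a short consensus around GGAC. Reader proteins bind RNA that carries the mark. The YTH domain holds the methylated base in an aromatic cage: YTHDC1 does so in the nucleus, where it acts in splicing and export, YTHDC2 is an RNA helicase known for its part in meiosis, and YTHDF1, YTHDF2 and YTHDF3 are close cytoplasmic paralogs, of which YTHDF2 recruits the CCR4-NOT deadenylase. The IGF2BP proteins bind RNA through KH domains and are known for stabilising their targets, MYC mRNA among them; IGF2BP1 and IGF2BP3 are best known from fetal tissue and tumours.

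Of the 7 tested genes, 1 rose and 4 fell in the siYTHDC1 libraries, by an edgeR quasi-likelihood test with p-values adjusted over all genes and a threshold of 0.05. On the log2 scale the cytoplasmic reader YTHDF3 fell by 0.57 and its paralog YTHDF1 fell by 0.37, YTHDC2 fell by 0.32, and IGF2BP2 rose by 0.37. The row of YTHDC1 met the threshold, but not without siNC replicate 2 or without siYTHDC1 replicate 2. YTHDF2 and IGF2BP3 were not called, and IGF2BP1 was at the limit of detection. Calls were common in this comparison: 53.4% of all tested genes were called, 26.3% as risen and 27.1% as fallen, so 5 calls among 7 readers do not set them apart. The CPM ranges of the groups did not overlap for 4 of the 7 readers, 3 of them lower and 1 higher in siYTHDC1, as was so for 59.3% of all tested genes (29.8% lower and 29.5% higher).

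The stretches of 250 bases before the annotated start of 5 of these genes are given first: YTHDC2, YTHDF1 and IGF2BP2 as genes that were called, YTHDC1 as the named target and IGF2BP3 as the uncalled paralog of IGF2BP2. Windows of YTHDF2 are not shown, and YTHDF3 and IGF2BP1 had no window in the set used here. They are from RefSeq on GRCh38.p14, written 5′ to 3′ on the strand of the gene, with capitals on every match to an E-box (CACGTG), a cyclic AMP response element (TGACGTCA) or a GC box (GGGCGG or CCGCCC), searched on both strands with overlapping matches counted. These motifs were chosen after the sequences had been seen.
YTHDC1 (chr4:68350091-68350340, minus strand): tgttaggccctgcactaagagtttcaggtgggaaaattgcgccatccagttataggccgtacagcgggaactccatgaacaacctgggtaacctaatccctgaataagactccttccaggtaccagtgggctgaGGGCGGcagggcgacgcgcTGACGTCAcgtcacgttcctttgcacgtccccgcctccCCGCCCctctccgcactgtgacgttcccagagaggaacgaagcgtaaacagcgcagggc
YTHDC2 (chr5:113513444-113513693, plus strand): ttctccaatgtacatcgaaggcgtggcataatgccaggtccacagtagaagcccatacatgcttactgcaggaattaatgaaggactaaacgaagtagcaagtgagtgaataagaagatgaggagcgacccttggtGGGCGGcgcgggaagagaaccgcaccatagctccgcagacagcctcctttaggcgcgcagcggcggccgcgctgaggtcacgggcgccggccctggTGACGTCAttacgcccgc
YTHDF1 (chr20:63216132-63216381, minus strand): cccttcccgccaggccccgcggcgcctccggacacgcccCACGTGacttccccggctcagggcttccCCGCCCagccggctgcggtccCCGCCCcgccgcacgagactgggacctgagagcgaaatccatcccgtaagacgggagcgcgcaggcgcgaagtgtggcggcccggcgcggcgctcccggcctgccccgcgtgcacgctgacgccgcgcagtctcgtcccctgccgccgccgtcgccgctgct
IGF2BP2 (chr3:185825043-185825292, minus strand): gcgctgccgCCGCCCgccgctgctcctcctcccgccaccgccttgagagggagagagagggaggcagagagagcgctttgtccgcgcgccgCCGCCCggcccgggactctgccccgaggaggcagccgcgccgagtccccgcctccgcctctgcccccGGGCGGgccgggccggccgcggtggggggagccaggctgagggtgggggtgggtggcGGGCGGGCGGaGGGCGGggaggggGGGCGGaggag
IGF2BP3 (chr7:23470492-23470741, minus strand): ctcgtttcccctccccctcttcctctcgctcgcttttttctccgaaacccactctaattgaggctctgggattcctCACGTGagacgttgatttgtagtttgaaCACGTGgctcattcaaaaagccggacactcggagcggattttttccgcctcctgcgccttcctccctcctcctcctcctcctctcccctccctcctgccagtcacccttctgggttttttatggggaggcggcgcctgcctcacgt
The windows of YTHDC1 and YTHDC2 each held 1 cyclic AMP response element, a motif found in 1.65% of 35116 such windows. YTHDF1 held 1 E-box and IGF2BP3 held 2, against 6.34% of windows with at least 1, and the IGF2BP2 window had neither motif. GC boxes, present in 42.6% of windows, numbered 7 in IGF2BP2, 2 each in YTHDC1 and YTHDF1, 1 in YTHDC2 and 0 in IGF2BP3; the G and C share was 81.6% for IGF2BP2 and 77.6% for YTHDF1, against a median of 58% over all windows. A letter match is a description of the window, not evidence of binding. RefSeq lists a further start for IGF2BP2 whose window held none of the 3 motifs. Neither of the YTHDF2 windows, which are not shown, held an E-box or a cyclic AMP response element. Their GC boxes numbered 2 and 4.

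The libraries were alike in depth, with 33223480 to 34858457 counts in siYTHDC1 and 34628360 to 35607577 counts in siNC. Levels are TMM-scaled CPM, read counts set relative to library size, and errors are SD over 3 libraries unless named otherwise. All 10 urothelial and epithelial markers passed the filter, and their summed level was 6624 to 6745 CPM in siYTHDC1 libraries and 11712 to 11878 CPM in siNC libraries. The markers in that sum did not all differ one way: KRT5 was at 655 ± 5.55 CPM in siYTHDC1 and 1548 ± 12.9 CPM in siNC libraries, but EPCAM was at 200.3 ± 0.876 CPM in siYTHDC1 and 181 ± 2.39 CPM in siNC libraries. TP63 was at 231 ± 4.82 CPM in siYTHDC1 and 205 ± 7.90 CPM in siNC libraries, and CDH1 at 240 ± 4.12 CPM in siYTHDC1 and 241 ± 3.10 CPM in siNC libraries. Like KRT5, KRT18 was lower, at 371 ± 11.0 CPM in siYTHDC1 and 490 ± 10.2 CPM in siNC libraries. GATA3 was lower too, at 40.8 ± 2.89 CPM in siYTHDC1 and 54.6 ± 1.17 CPM in siNC libraries. Values of the remaining markers in the sum are not given here. Of 6 fibroblast markers 3 passed the filter, with a sum of 92.3 to 97.1 CPM in siYTHDC1 and 78.9 to 84.9 CPM in siNC libraries, and DCN was at 0. Immune markers summed to 4.71 to 6.50 CPM in siYTHDC1 and 6.62 to 8.03 CPM in siNC libraries, with CD3E and CD68 at 0. Endothelial markers summed to 6.00 to 7.51 CPM in siYTHDC1 and 5.52 to 7.79 CPM in siNC libraries. The part of these levels in the reader results was not tested. In bulk RNA, fewer cells of a type and less RNA per cell cannot be told apart.

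YTHDC1, the nuclear reader named as the target, did not separate the groups. Its row (ENSG00000083896, chromosome 4, 68310387 to 68350089 on hg38, minus strand, up to 17 exons) held 161, 18 and 14 counts in siYTHDC1 replicates 1 to 3 and 50, 786 and 55 counts in siNC replicates 1 to 3. These were 4.61, 0.540 and 0.409 CPM in the siYTHDC1 libraries and 1.41, 22.8 and 1.59 CPM in the siNC libraries. A single library carried each group: siYTHDC1 replicate 1 had 83.4% of the siYTHDC1 counts and siNC replicate 2 had 88.2% of the siNC counts. siYTHDC1 replicate 1 lay above siNC replicates 1 and 3, and siYTHDC1 replicates 2 and 3 lay below every siNC library.

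The edgeR fit gave YTHDC1 a change of -2.20 ± 0.69 log2 units (SE), at an adjusted p of 0.00864. Leaving out siNC replicate 2 turned it to 0.31, at an edgeR adjusted p of 0.691. Leaving out siYTHDC1 replicate 1 took it to -4.17, at an edgeR adjusted p of 1.8e-04. The fit that omitted siYTHDC1 replicate 2 gave -1.77 and lost the call, at an edgeR adjusted p of 0.0666. The robust form of the edgeR test, which lets single genes depart from the common spread, gave an adjusted p of 0.344, limma-voom gave -1.83 (adjusted p = 0.0861), and DESeq2 returned no adjusted p for the gene. The direction of every other gene is therefore given by the library labels, not by a measured loss of YTHDC1.

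The spread of YTHDC1 within a group was among the widest in the table. Its coefficient of variation was 129% among siYTHDC1 libraries and 143% among siNC libraries, where the median gene averaging 1 CPM or more had 5.56% in siYTHDC1 and 4.88% in siNC libraries. Only 4 of 14390 such genes in siYTHDC1 libraries, and 7 of 14184 in siNC libraries, varied as much, YTHDC1 included. A coefficient of at least 100% in either group was found for 25 genes, and in both groups for 3: YTHDC1, CEP20 and SIK1, the last pair named after their values were seen. Like YTHDC1, CEP20 was high in siYTHDC1 replicate 1 (245 counts, against 18 and 17 in the other siYTHDC1 libraries), but its high siNC library was replicate 1 (136 counts, against 6 and 16). SIK1 was high in siYTHDC1 replicate 3 (147 counts, against 27 and 20) and in siNC replicate 2 (175 counts, against 15 and 24); it has a near-identical copy, SIK1B, so its counts are uncertain. The 3 rows were thus not all high in the same libraries. No 75-base word of the annotated YTHDC1 transcripts recurs in transcripts of another gene, and no exon of another gene overlaps it in GENCODE release 29. The nearest annotated genes, APOOP4 and MT2P1, had 0 counts in all 6 libraries. Whether reads of YTHDC1 were lost or gained in the authors' counting was not tested.

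**Figure D1:**
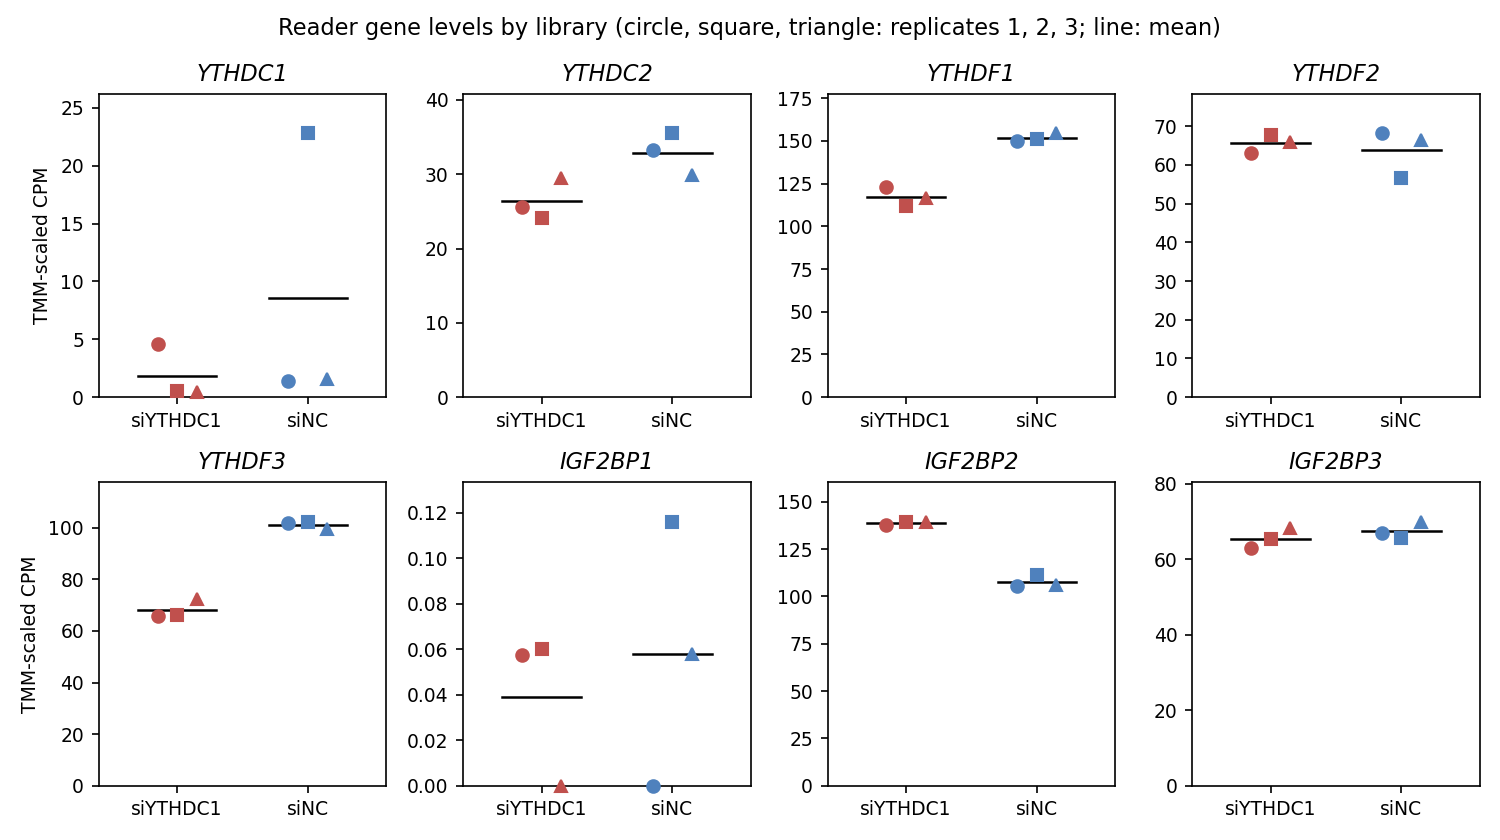
TMM-scaled CPM of each of the 8 reader genes in the 3 siYTHDC1 libraries (red, left) and the 3 siNC libraries (blue, right), with the group mean as a line; each panel has its own axis from 0. YTHDF1 and YTHDF3 lie lower and IGF2BP2 higher in all siYTHDC1 libraries, while 1 siNC library at 22.8 CPM sets the YTHDC1 mean.

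YTHDC2, the helicase-type YTH protein, fell in the siYTHDC1 libraries by a small margin. Its row (ENSG00000047188, chromosome 5, 113513683 to 113595285, plus strand, up to 30 exons) held 25.5, 24.1 and 29.5 CPM in siYTHDC1 replicates 1 to 3 and 33.2, 35.5 and 29.9 CPM in siNC replicates 1 to 3. The groups did not overlap, but siYTHDC1 replicate 3 came close to siNC replicate 3. In the edgeR fit this was a change of -0.32 ± 0.08 log2 units (SE; adjusted p = 0.00131), and it stayed between -0.41 and -0.25 when 1 library was left out, with adjusted p of at most 0.0168. Of all tested genes, 47.8% had a change at least as large.

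Of the YTHDF paralogs, YTHDF3 and YTHDF1 fell and YTHDF2 was not called. YTHDF3, a cytoplasmic reader (ENSG00000185728, chromosome 8, 63168553 to 63212786, plus strand, up to 6 exons), held 65.95, 66.2 and 72.5 CPM in the siYTHDC1 libraries and 102, 102 and 99.7 CPM in the siNC libraries. Every siYTHDC1 library lay far below every siNC library. In the edgeR fit this was a change of -0.57 ± 0.04 log2 units (SE; adjusted p = 2.13e-11), so the level fell by 32.6%, and 24.9% of tested genes changed by as much. YTHDF1, known for promoting translation of bound mRNA (ENSG00000149658, chromosome 20, 63195429 to 63216234, minus strand, up to 5 exons), held 123, 112 and 117 CPM in the siYTHDC1 libraries and 150, 151 and 155 CPM in the siNC libraries. Its groups did not overlap either. In the edgeR fit this was a change of -0.37 ± 0.04 log2 units (SE; adjusted p = 4.16e-09), so the level fell by 22.8%.

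YTHDF2, the paralog that directs bound mRNA to decay, was not called. Its row (ENSG00000198492, chromosome 1, 28736621 to 28769775, plus strand, up to 6 exons) held 63.1, 67.8 and 65.96 CPM in the siYTHDC1 libraries and 68.2, 56.6 and 66.5 CPM in the siNC libraries. siNC replicate 2 was the lowest library and the groups overlapped. The log2 fold change was 0.04 with a 95% interval from -0.08 to 0.16 (edgeR adjusted p = 0.579), and it was -0.04 without siNC replicate 2. The interval leaves out a fall of the size seen in YTHDF1 or YTHDF3. Of the 75-base words of YTHDF2, 4.69% recur in its pseudogene YTHDF2P1. That pseudogene, looked up after the YTHDF2 values were seen, had 13, 3 and 0 counts in the siYTHDC1 libraries and 0, 4 and 0 counts in the siNC libraries.

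Divided by exon length, the YTHDF paralogs can be compared with each other. Their summed level per kilobase of exon was 63.6 ± 1.16 CPM in siYTHDC1 libraries and 78.9 ± 1.70 CPM in siNC libraries. Within that sum YTHDF2 took 25.4, 28.2 and 26.6% in the siYTHDC1 libraries and 22.2, 19.03 and 21.5% in the siNC libraries. The share of YTHDF3 was 17.4 ± 0.865% in siYTHDC1 and 20.8 ± 0.714% in siNC libraries, and that of YTHDF1 was 55.8 ± 1.85% in siYTHDC1 and 58.3 ± 1.18% in siNC libraries. The YTHDF2 and YTHDF3 shares did not overlap between groups, whereas those of YTHDF1 did. Shares of a sum depend on each other, and a larger YTHDF2 share is not a rise of YTHDF2. Its own level was 17.0 ± 0.609 CPM per kilobase in siYTHDC1 and 16.5 ± 1.63 in siNC libraries. The larger share thus goes with the falls of YTHDF1 and YTHDF3 given above. How often such shares separate the groups in other gene families was not computed. Exact 2-sided permutation tests of 3 against 3 libraries gave p = 0.1 for YTHDF2 and for YTHDF3, the smallest p this design allows, and p = 0.2 for YTHDF1.

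Ratios between paralogs were formed for 4 pairs, and in each of them the groups did not overlap. The YTHDF ratios are built from the same genes, so they depend on each other and on the calls above. How often ratios of other gene pairs separate the groups was not computed. Of single tested genes, 59.3% did not overlap between groups. YTHDF2 over YTHDF3, per kilobase, was 1.54 ± 0.0913 in siYTHDC1 libraries and 1.01 ± 0.107 in siNC libraries. YTHDF2 over YTHDF1 was 0.480 ± 0.0396 in siYTHDC1 and 0.359 ± 0.0352 in siNC libraries. YTHDF1 over YTHDF3 was 3.21 ± 0.247 in siYTHDC1 and 2.80 ± 0.0839 in siNC libraries. The exact 2-sided permutation p was 0.1 for each of the 4 pairs, the smallest possible, and 0.1 after Benjamini-Hochberg adjustment over them.

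YTHDF3-DT, a lncRNA gene that starts next to YTHDF3 on the opposite strand (chromosome 8, 63167725 to 63168442), rose. It held 82, 69 and 82 counts in the siYTHDC1 libraries and 45, 32 and 52 counts in the siNC libraries, so the lowest siYTHDC1 library was above the highest siNC library. YTHDF3-DT changed by 0.88 ± 0.28 log2 units (SE; adjusted p in edgeR = 0.00934), opposite in sign to the change in YTHDF3. Its exons do not overlap those of another gene in release 29, and at 2.27 ± 0.175 CPM in siYTHDC1 and 1.23 ± 0.288 CPM in siNC libraries it was scarce. IGF2BP2-AS1, the other antisense or divergent gene named after a reader, had 1 count in the siYTHDC1 libraries together and 2 in the siNC libraries together.

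**Figure D2:**
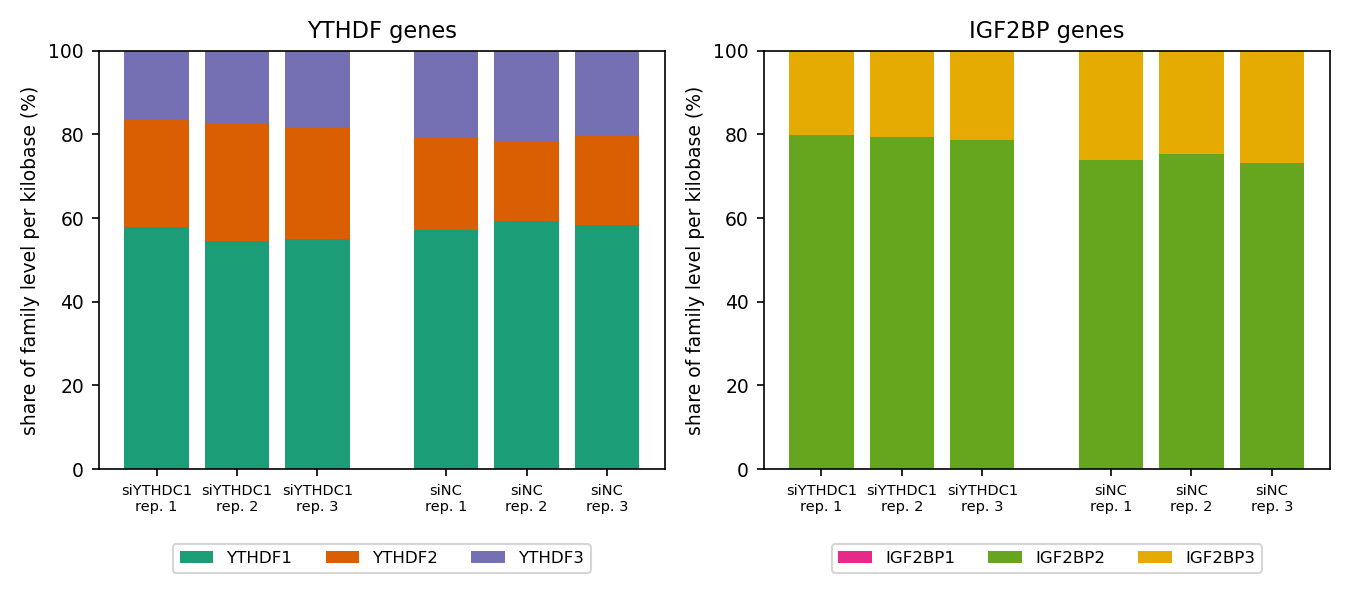
Share of each paralog in the summed level per kilobase of exon of its family, in percent, for the YTHDF genes (left) and the IGF2BP genes (right); each bar is a library, with siYTHDC1 left of siNC. YTHDF2 and IGF2BP2 take a larger share in all siYTHDC1 libraries, though YTHDF2 itself was not called. IGF2BP1 is too scarce to be seen.

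IGF2BP2 was the reader that rose. Its row (ENSG00000073792, chromosome 3, 185643739 to 185825056, minus strand, up to 16 exons) held 138, 139 and 140 CPM in siYTHDC1 replicates 1 to 3 and 105, 111 and 106 CPM in siNC replicates 1 to 3. All siYTHDC1 libraries were higher than all siNC libraries. In the edgeR fit this was a change of 0.37 ± 0.04 log2 units (SE; adjusted p = 2.69e-09), a level 29.2% higher, and 41.9% of tested genes changed by as much. Of its 75-base words, 2.36% recur in other annotated transcripts.

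IGF2BP3, its paralog, was not called. Its row (ENSG00000136231, chromosome 7, 23310209 to 23470467, minus strand, up to 15 exons) held 63.0, 65.3 and 68.3 CPM in the siYTHDC1 libraries and 67.1, 65.7 and 70.0 CPM in the siNC libraries. The groups overlapped, and the log2 fold change was -0.05 with a 95% interval from -0.14 to 0.05 (edgeR adjusted p = 0.454). Exons of MALSU1, on the opposite strand, cover 17.9% of its exonic sequence, and reads of the pair cannot be told apart if strand was not used in counting. Per kilobase of exon, IGF2BP2 over IGF2BP3 was 3.94, 3.84 and 3.67 in the siYTHDC1 libraries and 2.82, 3.05 and 2.73 in the siNC libraries. IGF2BP2 made up 79.2 ± 0.569% of the family in siYTHDC1 libraries and 74.1 ± 1.07% in siNC libraries, with no overlap (exact 2-sided permutation p = 0.1, the smallest possible).

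IGF2BP1, the third member of the family, was at or below the floor of 3 counts in 5 of 6 libraries. Its row (ENSG00000159217, chromosome 17, 48997412 to 49055650, plus strand, up to 15 exons) held 2, 2 and 0 counts in the siYTHDC1 libraries and 0, 4 and 2 counts in the siNC libraries. A library with 0 counts allows up to 0.0877 CPM in siYTHDC1 replicate 3 and 0.0847 CPM in siNC replicate 1, for counting error only. The gene did not pass the filter, and no fold is given.

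**Figure D3:**
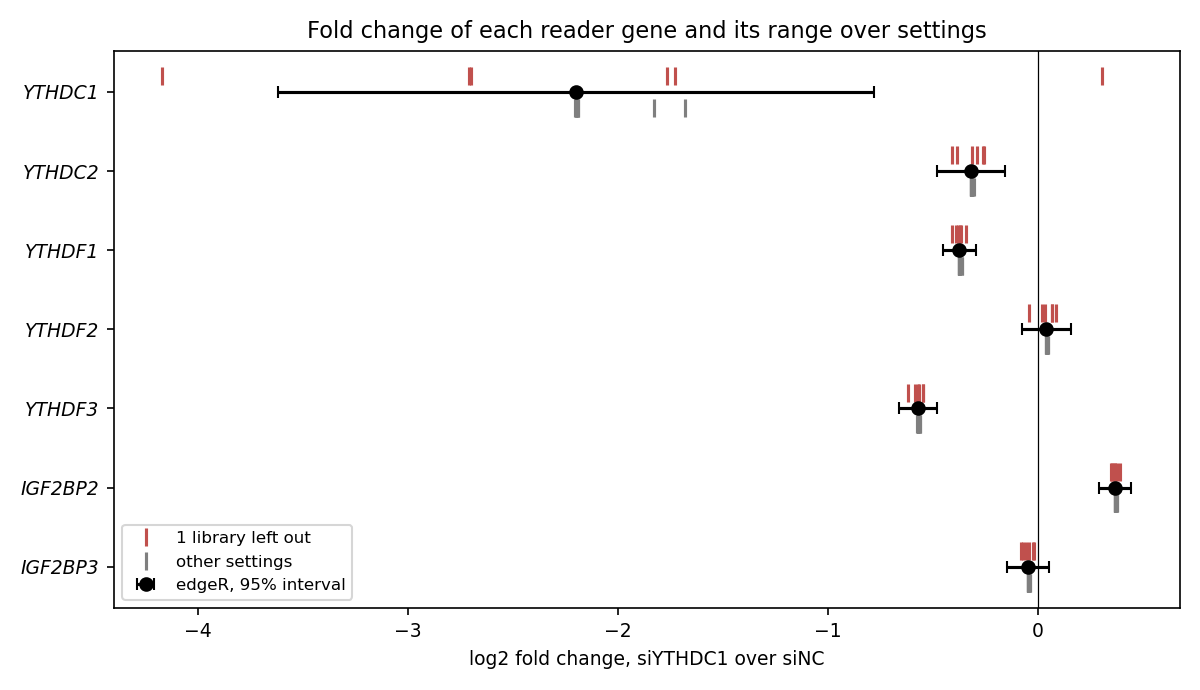
Log2 fold change of the 7 tested reader genes, siYTHDC1 over siNC, with the 95% interval of the edgeR fit (black), the values with 1 library left out (red) and those under the other settings (grey). Among these refits only YTHDC1 and YTHDF2 cross 0, YTHDC1 reaching 0.31 and YTHDF2 -0.04 without siNC replicate 2.

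Per kilobase of exon, the readers spanned a wide range of levels, and their order was the same in both groups. YTHDF1 was highest, at 35.5 ± 1.69 CPM per kilobase in siYTHDC1 and 46.0 ± 0.745 in siNC libraries. IGF2BP2 came next, at 29.4 ± 0.178 CPM per kilobase in siYTHDC1 and 22.7 ± 0.674 in siNC libraries, so that YTHDF1 was 1.21 times IGF2BP2 in siYTHDC1 and 2.02 times in siNC libraries. YTHDF2 followed with 17.0 ± 0.609 CPM per kilobase in siYTHDC1 and 16.5 ± 1.63 in siNC libraries, and YTHDF3 with 11.1 ± 0.604 in siYTHDC1 and 16.4 ± 0.235 in siNC libraries. YTHDF2 and YTHDF3 overlapped in the siNC libraries and did not in the siYTHDC1 libraries. IGF2BP3 (7.70 ± 0.310 in siYTHDC1 and 7.94 ± 0.262 in siNC libraries) and YTHDC2 (2.44 ± 0.258 in siYTHDC1 and 3.04 ± 0.263 in siNC libraries) were lower.

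YTHDC1 had 0.263 ± 0.340 CPM per kilobase in siYTHDC1 and 1.22 ± 1.75 in siNC libraries, and overlapped with YTHDC2 in the siNC group through siNC replicate 2. With the longest transcript as the length, the siNC order was the same, while in the siYTHDC1 libraries IGF2BP2 came just above YTHDF1 and IGF2BP3 above YTHDF3.

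The readers' transcripts differed in their density of GGACT, a common form of the m6A consensus. The motif occurred 0.303 times per kilobase in the longest coding transcript of YTHDF1, 0.385 times in YTHDF3 and 0.471 times in the uncalled IGF2BP3. YTHDC2 had 0.633 and YTHDC1 0.642 per kilobase, against a median of 0.931 over 19430 genes. IGF2BP2 had the highest density of the 8, 1.36 per kilobase, and 72.9% of genes had no more. YTHDF2 had 1.03 and IGF2BP1 1.09 per kilobase. The densities rest on few matches, from 1 in YTHDF1 to 9 in IGF2BP1, with 5 in IGF2BP2. Whether density goes with the change of a gene was not tested. These are letter counts in GENCODE release 29, not measured methylation.

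**Figure D4:**
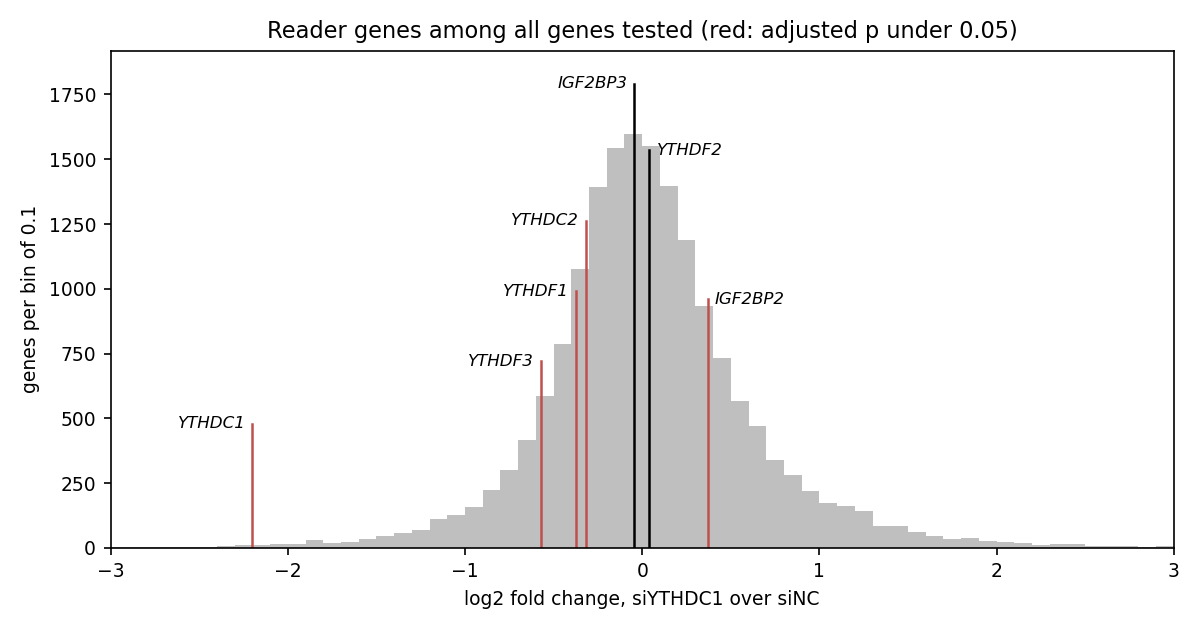
Distribution of log2 fold changes, siYTHDC1 over siNC, over all 17372 tested genes (grey bars, genes per bin of 0.1, shown from -3 to 3), with each tested reader gene as a labelled line whose height carries no value; red lines are called. Apart from YTHDC1 at -2.20, the readers lie in the body of the distribution, between -0.57 and 0.37.

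The enzymes that write and erase m6A were read from the same fit. Of 13 genes, 2 rose, 6 fell and 5 were not called (61.5% called, against 53.4% of all tested genes), with a median log2 fold change of -0.11 against a median of 0.00 (-4.06e-04) over all tested genes. RBM15, which guides the methyltransferase complex to RNA, rose to 75.6 ± 0.357 CPM in siYTHDC1 libraries, against 50.2 ± 1.78 CPM in siNC libraries (a change of 0.59 ± 0.05 log2 units, SE; adjusted p in edgeR = 3.67e-11). METTL5, a methyltransferase of ribosomal RNA, rose by 0.26 ± 0.05. The complex subunits VIRMA and ZC3H13 fell by 0.33 and 0.25. The catalytic pair was split: METTL14 was called as fallen (-0.24) and METTL3 was not (-0.06, edgeR adjusted p = 0.373), the pair being named after their values were seen. Exons of SSB, on the opposite strand, cover 20% of the METTL5 exonic sequence.

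Of 12 other RNA-binding proteins reported to respond to m6A, 4 rose, 6 fell and 2 were not called, with a median of -0.08; 53.4% of all tested genes were called. One of the rises, PRRC2A, rested on a single library. SND1, a Tudor-domain nuclease, rose to 285 ± 7.45 CPM in siYTHDC1 libraries, against 188 ± 4.29 CPM in siNC libraries, a change of 0.60 ± 0.03 log2 units (SE; adjusted p in edgeR = 6.17e-15). FXR1, of the FMRP family, rose by 0.35 ± 0.04. RBMX, a nuclear hnRNP, fell to 216 ± 6.87 CPM in siYTHDC1 libraries, against 299 ± 1.80 CPM in siNC libraries. The PRRC2A row held 267, 16 and 18 counts in the siYTHDC1 libraries and 9, 12 and 28 in the siNC libraries. Its log2 fold change of 2.61 (edgeR adjusted p = 0.00172) became 0.10 (edgeR adjusted p = 0.908) without siYTHDC1 replicate 1, the highest of a range from 3.84e-14 over the alternatives. That is the library in which YTHDC1 was also highest among the siYTHDC1 libraries.

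Of 14 tested partners of the readers, 1 rose, 8 fell and 5 were not called, with a median of -0.24, where 26.3% of all tested genes rose and 27.1% fell. The list's difference from all genes was not tested, and ELAVL1, which fell, is also among the 12 RNA-binding proteins. SRSF3, a splicing factor that YTHDC1 recruits, fell to 197, 193 and 200 CPM in the siYTHDC1 libraries, against 369, 365 and 367 CPM in the siNC libraries. It changed by -0.90 ± 0.03 log2 units (SE; adjusted p in edgeR = 1.63e-19). NXF1, the mRNA export receptor, fell by 0.51, and the scaffold-attachment factor gene SAFB fell by 0.48. SRSF10, a splicing factor whose binding YTHDC1 limits, fell by 0.46. Cytoplasmic partners are named after their values were seen. The poly(A)-binding protein gene PABPC1 was the single rise (0.28), while XRN1 (-0.28) and UPF1 (-0.09) were called as fallen. CNOT1, the scaffold of the deadenylase that YTHDF2 recruits, was not called (-0.06, edgeR adjusted p = 0.133), nor was RIDA (0.05). MATR3 has a second identifier with shared exons and is uncertain, and RBM46 was not tested.

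Of 10 tested transcripts known to be bound by IGF2BP proteins, 3 rose, 4 fell and 3 were not called, with a median of -0.03, where 26.3% of all tested genes rose and 27.1% fell. CD44, a cell-surface hyaluronan receptor, rose to 688, 683 and 717 CPM in the siYTHDC1 libraries, against 398, 405 and 412 CPM in the siNC libraries (a change of 0.78 ± 0.03 log2 units, SE; adjusted p in edgeR = 3.97e-19). BTRC, an F-box protein gene, fell by 0.34. H19, an imprinted lncRNA, had 44, 41 and 227 counts in the siYTHDC1 libraries and 218, 245 and 240 counts in the siNC libraries, so that siYTHDC1 replicate 3 lay among the siNC libraries. The H19 log2 fold change was -1.14 (edgeR adjusted p = 0.00622). It was -0.77 without siYTHDC1 replicate 1 (edgeR adjusted p = 0.0497) or replicate 2 (edgeR adjusted p = 0.0622) and -2.43 without siYTHDC1 replicate 3, and DESeq2 gave an adjusted p of 0.259. LIN28B was not tested.

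Genes whose log2 CPM followed each reader most closely were sought over the 6 libraries among 11303 genes averaging 5 CPM or more; with 6 points that mostly hold a group difference, high values of Pearson's r are common and describe these libraries only. For YTHDF3 the nearest were EIF3J, B3GALNT1 and ZBED5 (r from 0.999 to 1.00), and 1793 genes reached 0.95. For IGF2BP2 they were GDPD5, UST and SLC2A4RG, with 1828 genes at 0.95, and for YTHDF1 CBFB, CHDH and UCK1, with 1483. Close neighbours of YTHDC2 were EPN2, DPH1 and TGFB1I1, and 64 genes reached 0.95. Few genes shared the library pattern of the other readers. ADAT3 (r = 0.985), LOXL1 and VKORC1L1 came nearest to YTHDC1, of 7 genes at 0.95, SIAH1 (r = 0.971), RAB3IL1 and USP45 to YTHDF2, of 5, and ARFGEF2 (r = 0.991), ACAP2 and MIR17HG to IGF2BP3, of 10. The likeness to YTHDC1 is one of shape and not of size: ADAT3 held 223, 178 and 170 counts in the siYTHDC1 libraries and 201, 283 and 210 in the siNC libraries.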

How the data were processed

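RNA of 5637 cells was sequenced in 3 siYTHDC1 and 3 siNC libraries. Raw counts for each Ensembl gene were deposited by the authors, as whole numbers with unequal totals. Libraries were made with a directional kit, per the labels' protocols, and hg38 is the build that the submitters' processing notes name. Aligner, counter, annotation, strand setting and treatment of reads with several matches were not given in the sources used here. Genes with 2 counts outnumbered those with 1 in each library (1977 to 2057 against 1141 to 1298), so low counts may not be single independent fragments.

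Columns were matched to samples by title, and 0 columns were left unused. Symbols came from an Ensembl name table for 61757 of 61860 genes and from GENCODE 29 for 101; positions and lengths came from GENCODE 29. Genes were tested with edgeR 4.0.16 in R 4.3.3 (TMM, default low-count filter, quasi-likelihood test, all 6 libraries, group only, 2-sided), and p-values were adjusted by Benjamini and Hochberg over 17372 genes. The edgeR fit was tested, without the filter, on simulated counts whose spread followed the trend over all genes. Rows carried by a single library, such as YTHDC1, were not covered by that test. Levels per length are CPM per kilobase of merged exons. Exact permutation tests used SciPy 1.17.1. Alternatives were other scalings, DESeq2 1.42.0, limma-voom (limma 3.58.1), a robust edgeR test, 2 other filters, a replicate block, transcript length and leaving out each library. Floors of 3 counts cover counting error only; intervals of fold changes come from the edgeR fit.

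Members and lists were chosen with earlier results of these data known. Besides the members, named genes are up to 4 called genes in each list, those that changed most among genes averaging 1 CPM or more, the 3 closest in pattern to each tested member, and the neighbours of YTHDC1; others are marked, and some that the rule names are not reported here.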

Additional observations from a re-analysis of the deposited data

How the results depend on the processing

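The number of called genes was 8533 to 8960 with 1 library left out and 8599 to 9335 under the other settings, against 9278. The calls of YTHDC2, YTHDF1, YTHDF3 and IGF2BP2 held in all 15 alternatives, and those of YTHDF2 and IGF2BP3 stayed absent. YTHDC1 ran from -4.17 to 0.31 on the log2 scale with 1 library left out, was -1.83 with limma-voom and lost its call at -2.20 in the robust edgeR test (adjusted p = 0.344); DESeq2 gave it no adjusted p. The fallen readers numbered 3, not 4, in those fits and when siNC replicate 2 or siYTHDC1 replicate 2 was left out. YTHDF2 ran from -0.040 to 0.087 with 1 library left out. PRRC2A was 1.59 with limma-voom and 2.61 in the robust test, without a call in either. The family shares kept their direction in all 8 alternatives tried for each.

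With the length of the longest transcript in place of merged exons, the mean level over 6 libraries was 4.42 CPM per kilobase for YTHDC2, 22.1 for YTHDF2, 16.3 for YTHDF3, 33.4 for IGF2BP2 and 15.7 for IGF2BP3, since those transcripts are shorter than the merged exons. Same-numbered libraries did not deviate together over the tested genes (r of 0.00545, -0.00654 and -0.0165 for numbers 1 to 3). No broad effect shared by number was thus seen. Such values cannot tell whether same-numbered libraries were prepared together, and the labels do not say. With the replicate block 9227 genes were called and YTHDC1 was -1.68. Depth limits IGF2BP1, at no more than 4 counts in a library, and YTHDF3-DT.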
